A study of Mus musculus with 6 samples.

Results

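NRF2, the transcription factor encoded by Nfe2l2, its inhibitor KEAP1 and 8 of the antioxidant genes that NRF2 is known to drive were examined in mouse breast carcinoma cells in which a LINE-1 (L1) retrotransposon can be switched on. The 10 genes were taken by symbol (Nfe2l2, Keap1, Hmox1, Nqo1, Gclc, Gclm, Txnrd1, Srxn1, Slc7a11 and Gsr). All 10 were found among the 24421 genes of the count table, and all 10 passed the filter on low counts.

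Total RNA was sequenced from 4T1-tetL1(GLucAI) cells, a 4T1 line of strain BALB/cfC3H, in 3 untreated libraries (called vehicle in the treatment tag) and in 3 libraries of cells kept for 48 h in doxycycline at 400 ng/mL. Every library of both groups came from the same stably transfected population, selected with blasticidin and not derived as a clone. These cells carry a recoded mouse L1 with a Gaussia luciferase retrotransposition reporter under a doxycycline-responsive promoter, which drives firefly luciferase in the other direction. An EF1α promoter in the same construct expresses the tetracycline transactivator and blasticidin resistance in both groups. No library of doxycycline-exposed cells without the cassette was part of the comparison, so an effect of L1 and an effect of the drug cannot be told apart. Expression of the cassette itself, a check on the labels, was not analysed here, and the second group is therefore called the libraries labelled doxycycline.

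NRF2 is a basic leucine zipper factor that KEAP1, an adaptor of a cullin-3 ubiquitin ligase, holds at a low level by marking it for degradation. Oxidants and electrophiles modify cysteines of KEAP1, NRF2 then accumulates, pairs with a small MAF protein and binds antioxidant response elements of genes for glutathione synthesis, thioredoxin recycling, quinone reduction and heme breakdown. Because this control acts mostly on NRF2 protein, the mRNA of the targets is the usual readout in RNA data. In carcinoma cells the pathway is known for its part in resistance to oxidants and to drugs.

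The letters of the response element were looked for in RefSeq promoter windows of GRCm38.p6, which run from 250 bases before to 50 bases after an annotated start. The core searched was TGACNNNGC on the gene's strand and its reverse complement GCNNNGTCA, and a match is a description of the letters, not a bound site. Windows were found for 7 of the 10 genes, 9 windows in all because Txnrd1 has 3 starts. The core was present in 4 of the 9 windows, and in 12.4% of all 32851 windows of the same length. The stretches that hold it are shown because they are the places in these windows where a member carries the core searched. Variants of this core were not searched, so the stretches need not be all the response elements in the windows. Each is written 5′ to 3′ on the gene's strand, with up to 25 bases on either side and the core in capitals.
Nfe2l2, chr2:75704870-75704913, minus strand: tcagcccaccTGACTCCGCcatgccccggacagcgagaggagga
Gclm, chr3:122245398-122245456, plus strand: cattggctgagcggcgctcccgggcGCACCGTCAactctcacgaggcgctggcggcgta
Txnrd1, chr10:82859089-82859147, plus strand: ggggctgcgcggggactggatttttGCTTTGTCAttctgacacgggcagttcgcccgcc
Srxn1, chr2:152105527-152105573, plus strand: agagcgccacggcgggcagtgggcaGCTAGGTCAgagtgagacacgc
The core began 240 bases before the start of Nfe2l2, where it reads forward. It began 134 bases before the annotated start used for Gclm, which lies 70 bases inside the outer edge of the gene given below, and 92 bases before the second annotated start of Txnrd1, in the reverse orientation in both. In Srxn1 it lay 28 bases past the start, also in the reverse orientation. The windows of Keap1, Nqo1 and Slc7a11 and the other 2 windows of Txnrd1 held no such letters. The Slc7a11 window belongs to a start 55474 bases inside the outer edge of the gene, and the letters around that edge were not searched. None of the 4 genes that carry the core in these windows passed the test of the treatment described next.

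Library totals ran from 31653464 to 43631312 counts, and the ranges of the groups overlapped. A floor of 3 counts corresponds to 0.0688 to 0.0948 CPM (the count scaled to a common library size) by the library totals and covers counting error only. All CPM values given below are also scaled by TMM factors, which adjust for differences in RNA composition. Doxycycline replicate 2 stood furthest from its group by the chi-square of its counts, and it also had the highest share of the ribosomal precursor Rn45s, 12.1% against 8.83 to 11.0% in the other libraries. Epithelial markers (Epcam, Cdh1, Krt8, Krt18, Krt19, Cldn4 and Cldn7) were expressed in every library, which fits the label of a carcinoma line, with a summed level of 1459 to 1510 CPM untreated and 1427 to 1575 CPM in the libraries labelled doxycycline. Of the leukocyte, endothelial and fibroblast markers, only Cd14, Pdgfra and Col1a1 passed the filter, and the other 12 had at most 23 counts in any library.

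None of the 10 genes passed the test between the groups (edgeR quasi-likelihood test on all 13084 tested genes, adjusted p under 0.05), against 0.925% of all tested genes called higher and 2.16% called lower. In either direction 3.09% of tested genes were called. The fitted level of the members in the libraries labelled doxycycline ran from 0.856 times (Nqo1) to 1.06 times (Gclc) the untreated level. Slc7a11 and Gsr were the only members at an unadjusted p under 0.05, both lower, where 8.95% of all tested genes reached that level lower, 7.25% higher and 16.2% in either direction. DESeq2 called these 2 genes lower, where it called 358 of all tested genes lower and 185 higher. With limma voom 0 members were called, where 278 of all tested genes were called lower and 119 higher. The median log2 fold change of the 10 genes was -0.02, beside 0.0025 over all tested genes. In bulk RNA a smaller number of cells expressing a gene and less RNA per cell cannot be told apart. The plot of each member's CPM by library shows groups that overlap for 6 genes and stand apart for Nqo1, Gclm, Slc7a11 and Gsr.

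**Figure D1:**
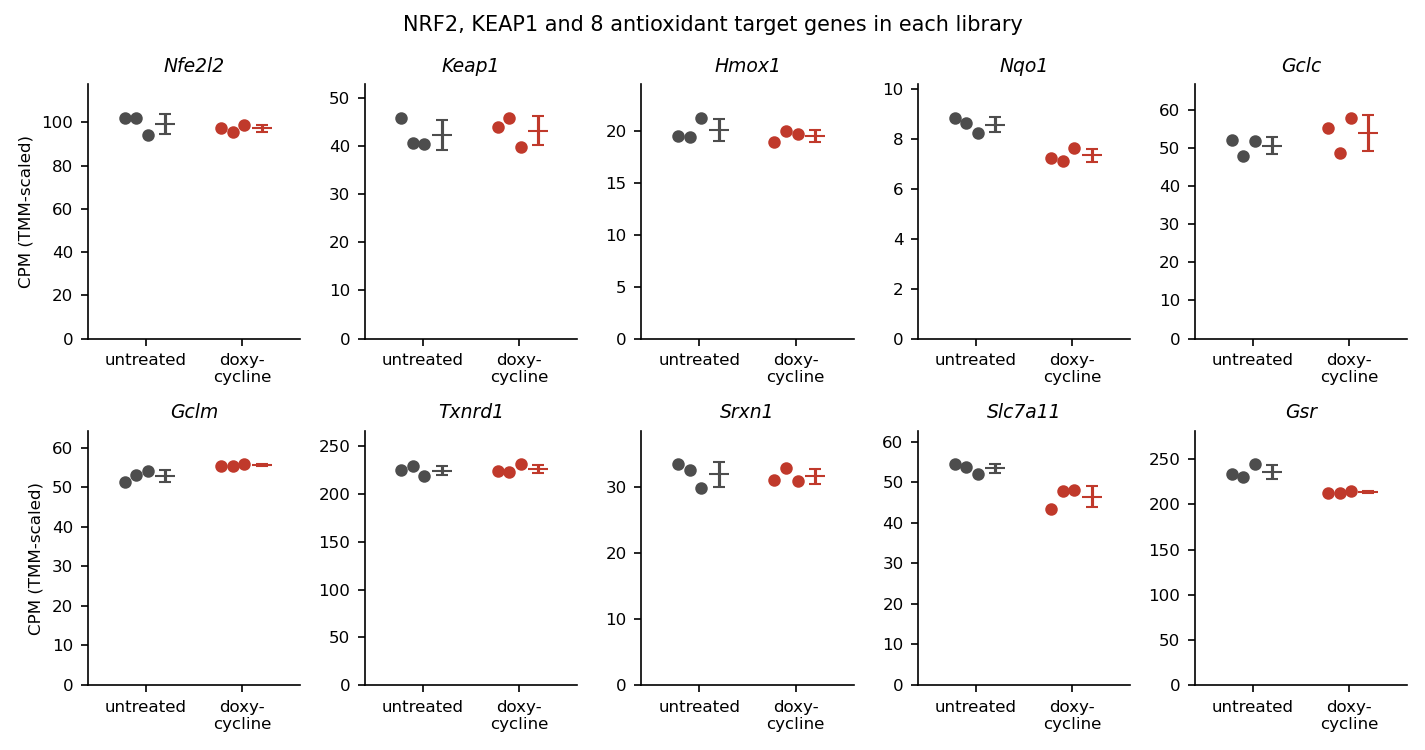
CPM (TMM-scaled, axes from 0) of the 10 genes in each library, 1 panel per gene, with points for the 3 untreated libraries (grey) and the 3 labelled doxycycline (red) and bars for mean ± SD. The groups do not overlap for Nqo1, Slc7a11 and Gsr, which were lower, nor for Gclm, which was higher, and none of the 10 passed the adjusted test.

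The regulators themselves differed by less than their spread. Nfe2l2 (chromosome 2, 75675513 to 75704663, protein-coding) stood at 102, 102 and 94.0 CPM in untreated replicates 1 to 3 and at 97.6, 95.5 and 98.7 CPM in the libraries labelled doxycycline. Untreated replicate 3 was the lowest library, and the other group lay inside the untreated range. The log2 fold change was -0.03, with a standard error (SE) of 0.05 and an edgeR adjusted p of 0.823, and with a 95% interval of -0.14 to 0.07, so that a fall below 0.909 times or a rise above 1.05 times the untreated level lies outside it. Keap1 (chromosome 9, 21229730 to 21239332, protein-coding) ran from 40.6 to 46.0 CPM untreated and from 39.9 to 45.8 CPM in the libraries labelled doxycycline, with untreated replicate 1 the highest library and doxycycline replicate 3 the lowest. Its log2 fold change of 0.03 had a 95% interval of -0.12 to 0.17 (edgeR adjusted p 0.901). The ratio of Keap1 to Nfe2l2, each per kilobase of exon, was 0.235 ± 0.0144 untreated and 0.245 ± 0.0208 in the libraries labelled doxycycline (SD, n = 3 each, two-sided exact permutation test p 0.5, where 3 against 3 allows no p below 0.1). It is 1 of 3 ratios of partner genes that were tested, all chosen with values known, and its Benjamini-Hochberg adjusted p over the 3 exact tests was 0.75.

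Glutathione synthesis starts from cystine, which Slc7a11 brings into the cell. Slc7a11 (chromosome 3, 50364936 to 50499087, protein-coding) encodes the light chain xCT of the cystine and glutamate exchanger, and it is known as a target of ATF4 as well as of NRF2. Untreated replicates 1 to 3 had 54.5, 53.7 and 52.2 CPM of it, and those labelled doxycycline had 43.5, 47.9 and 48.2 CPM. All 3 libraries labelled doxycycline lay below the lowest untreated library, with replicate 1 the lowest. The log2 fold change was -0.20 (SE 0.06, 95% interval -0.33 to -0.07), with an unadjusted p of 0.00342 and an edgeR adjusted p of 0.0805, short of the threshold. Over the alternatives tried the adjusted p ran from 0.0219 to 0.266. It passed without a filter on low counts (0.0483), with DESeq2 (0.0495) and without doxycycline replicate 2 (0.0219). The heavy chain partner of xCT, Slc3a2, did not pass either and had 123 ± 3.39 CPM untreated and 133 ± 9.49 CPM in the libraries labelled doxycycline (SD, n = 3 each). The ratio of Slc7a11 to Slc3a2 per kilobase was 0.140, 0.133 and 0.127 in the untreated libraries. In the libraries labelled doxycycline it was 0.109, 0.104 and 0.109. The groups of this ratio did not overlap, and the two-sided exact permutation p was 0.1, the smallest that 3 against 3 can give, or 0.3 adjusted over the 3 ratios.

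The enzyme that joins glutamate and cysteine, the first and limiting step of glutathione synthesis, has a catalytic subunit encoded by Gclc and a modifier subunit encoded by Gclm. Gclc (chromosome 9, 77754535 to 77794489, protein-coding) ran from 48.1 to 52.2 CPM untreated and from 48.7 to 58.0 CPM in the libraries labelled doxycycline, where replicate 2 was low and the other two were above every untreated library. Its log2 fold change of 0.09, with an SE of 0.07, did not pass (edgeR adjusted p 0.543). It stood at 0.16 without doxycycline replicate 2 and at 0.03 without doxycycline replicate 3. Gclm (chromosome 3, 122245487 to 122267215, protein-coding) measured 51.3, 53.1 and 54.1 CPM without doxycycline and 55.4, 55.3 and 55.8 CPM in those labelled doxycycline. These groups did not overlap, but the distance was small, and its log2 fold change of 0.07 had a 95% interval of -0.04 to 0.19 (edgeR adjusted p 0.566). The ratio of Gclc to Gclm per kilobase was 1.57 ± 0.0916 untreated and 1.59 ± 0.134 in the libraries labelled doxycycline (SD, n = 3 each, two-sided exact permutation p 0.9, also 0.9 adjusted over the 3 ratios).

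Gsr and Txnrd1 encode the NADPH-dependent reductases that recycle oxidised glutathione and oxidised thioredoxin. Gsr (chromosome 8, 33653238 to 33698162, protein-coding) had 233, 230 and 245 CPM in the untreated libraries. In the libraries labelled doxycycline it had 213, 213 and 215 CPM, a spread of 1.28 CPM (SD) against 7.56 CPM untreated. Every library labelled doxycycline was below every untreated library. The log2 fold change was -0.14 (SE 0.04, 95% interval -0.24 to -0.05, unadjusted p 0.00376, edgeR adjusted p 0.0840). Over the alternatives its adjusted p ran from 0.00709 to 0.404. It passed with DESeq2 (0.0396), without doxycycline replicate 2 (0.0202), with a correction for GC content and length (0.00709) and with that correction and a replicate block (0.0104). Txnrd1 (chromosome 10, 82833951 to 82897724, protein-coding) ran from 219 to 229 CPM untreated and from 223 to 231 CPM in the libraries labelled doxycycline, with overlapping groups. Its log2 fold change of 0.01 had the narrowest 95% interval among the 10 genes, -0.08 to 0.10 (edgeR adjusted p 0.932). The gene span of Txnrd1 overlaps that of Eid3, which had 190 to 267 counts against 7131 to 9888 for Txnrd1. Whether the exons share reads was not examined, and how such reads would have been counted is not given. Srxn1 (chromosome 2, 152105524 to 152111376, protein-coding), which encodes sulfiredoxin and repairs overoxidised peroxiredoxins, ran from 29.8 to 33.5 CPM untreated and from 30.9 to 32.9 CPM in the libraries labelled doxycycline (log2 fold change -0.01, edgeR adjusted p 0.950, SE 0.07).

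Nqo1 and Hmox1 are the targets most often used to report NRF2 activity. Nqo1 (chromosome 8, 107388225 to 107403205, protein-coding), a quinone reductase, measured 8.84, 8.60 and 8.22 CPM without doxycycline and 7.23, 7.10 and 7.63 CPM in those labelled doxycycline. The groups did not overlap, and all 3 libraries labelled doxycycline were lower. With 230 to 388 counts per library it was the member with the fewest reads, and its log2 fold change of -0.23 (SE 0.11, 95% interval -0.46 to 0.01) did not pass (edgeR adjusted p 0.339). Its direction was the same in all 17 alternatives, from -0.26 to -0.20, and its adjusted p stayed above the threshold in each, from 0.296 to 0.564. Hmox1 (chromosome 8, 75093618 to 75100593, protein-coding), which opens the heme ring and is also held down by the repressor BACH1, ran from 19.4 to 21.3 CPM untreated and from 18.9 to 20.0 CPM in the libraries labelled doxycycline. These ranges overlapped, and its log2 fold change was -0.04 (95% interval -0.20 to 0.13, edgeR adjusted p 0.875).

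**Figure D2:**
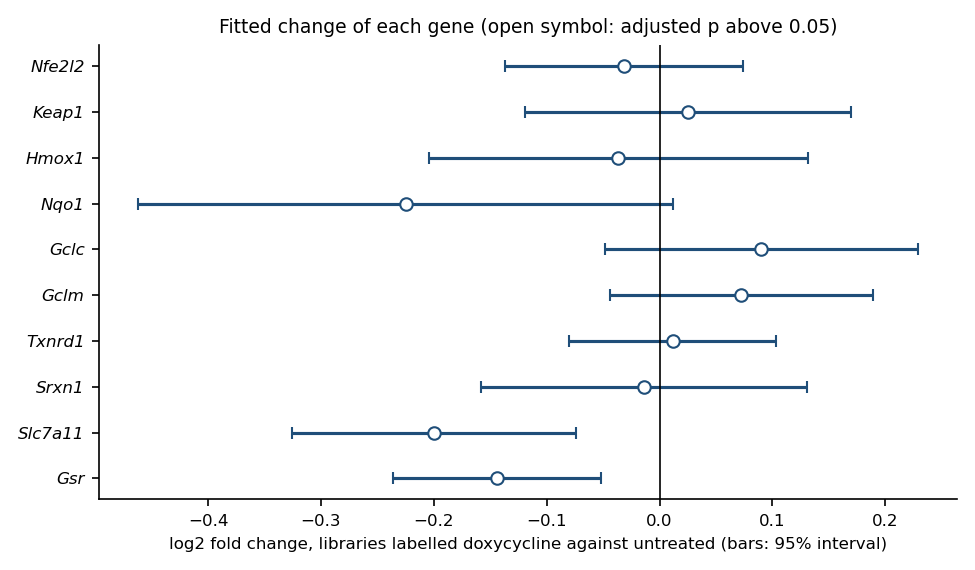
Fitted log2 fold change of each of the 10 genes (points) with its 95% interval (bars), libraries labelled doxycycline against untreated. All symbols are open because no gene passed the adjusted test, and the intervals of Slc7a11 and Gsr are the only ones that lie wholly below 0.

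Of the 10 genes, 3 had non-overlapping groups in the lower direction and 1 in the higher direction, where 11.1% and 10.1% of all tested genes did so. The 95% intervals of the 10 genes ran down to 0.726 times the untreated level (Nqo1) and up to 1.17 times (Gclc). The plot of Slc7a11, Gsr and Nqo1 under each processing choice shows fitted values below 0 throughout, while the calls of Slc7a11 and Gsr changed with the choice made.

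**Figure D3:**
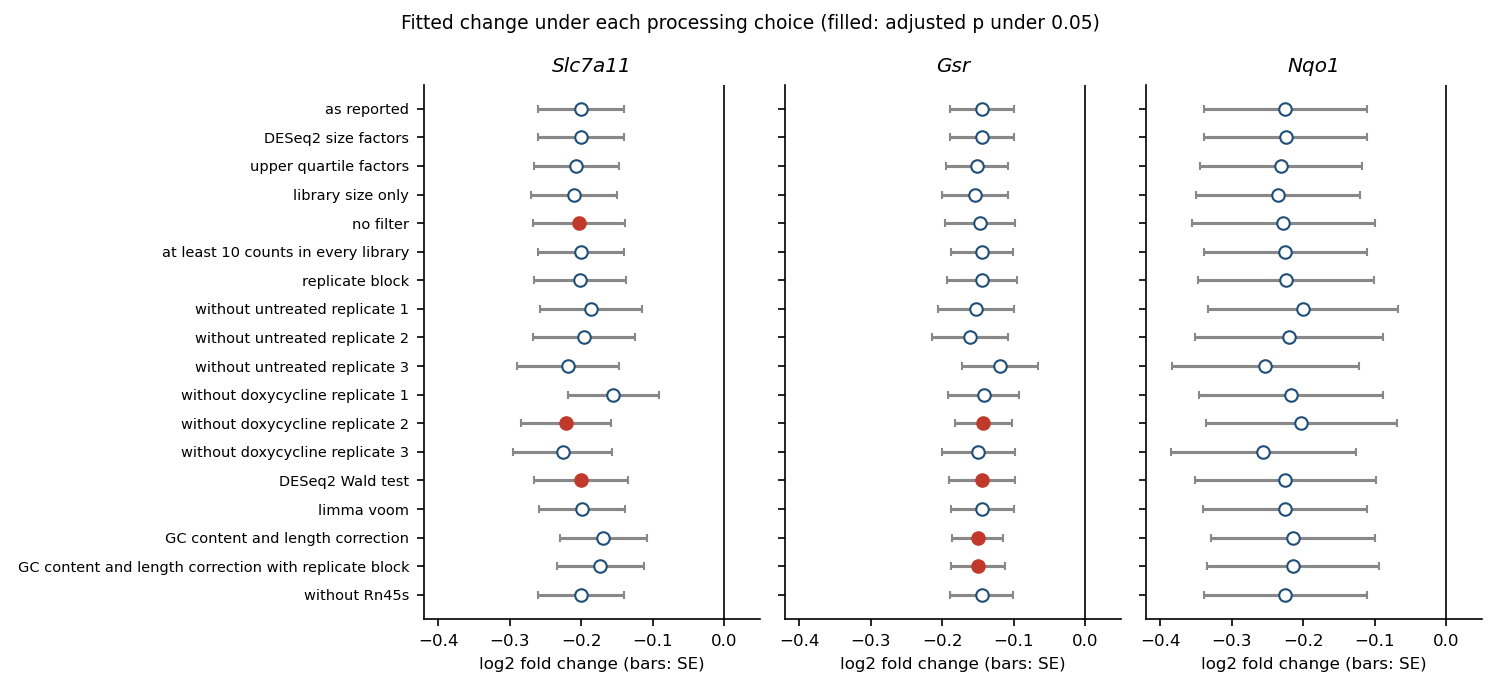
Log2 fold change (points, with bars of 1 SE) of Slc7a11, Gsr and Nqo1 under the reported test and each alternative, listed from top to bottom. Filled symbols mark an adjusted p under 0.05: Slc7a11 has 3 and Gsr has 4 of the 17 alternatives filled, Nqo1 has none, and every point lies below 0.

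Levels were compared between genes as CPM per kilobase of exon, using the GENCODE M21 exon length of each gene. Gsr was the most abundant member at 84.1 CPM per kilobase over the 6 libraries, at the 95.2 percentile of tested genes. It was followed by Txnrd1 at 55.3 and Nfe2l2 at 39.7. A second tier held Gclc at 15.3, Hmox1 at 12.6, Srxn1 at 11.3, Gclm at 9.69 and Keap1 at 9.52. Nqo1 and Slc7a11 were lowest at 5.11 and 5.08, at the 39.4 and 39.3 percentile. Neighbours in this order did not overlap in any library except Gclm with Keap1 and Nqo1 with Slc7a11, which cannot be ranked from these data. The median of tested genes was 7.97 CPM per kilobase, and 8 of the 10 members were above it in every library. The exon models of the authors' annotation may differ in length from those used here, which would shift a gene's level but not its fold change.

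The rest of the pathway was read from 6 further lists that hold 123 genes, of which 104 were tested. These lists were chosen with earlier results of these data known, so the shares set beside them are no test of the pathway. Together 16 of the 104 genes were called lower and 0 higher in the libraries labelled doxycycline, read against 2.16% and 0.925% over all tested genes. Without adjustment, 24 were lower and 9 higher at p under 0.05, against 8.95% and 7.25% of all tested genes at that level. DESeq2 called 17 lower and 0 higher, and limma voom 15 lower and 0 higher. Without doxycycline replicate 2 there were 16 lower and 4 higher, while only 4 were lower without doxycycline replicate 3 and 5 without untreated replicate 1 or 3. Calls over all tested genes also moved in these fits, from 283 lower and 121 higher to 487 lower and 269 higher without doxycycline replicate 2, and to 149 lower and 66 higher without doxycycline replicate 3. Without untreated replicates 1 and 3 they were 141 and 116 lower. No call for a list as a whole was made.

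**Figure D4:**
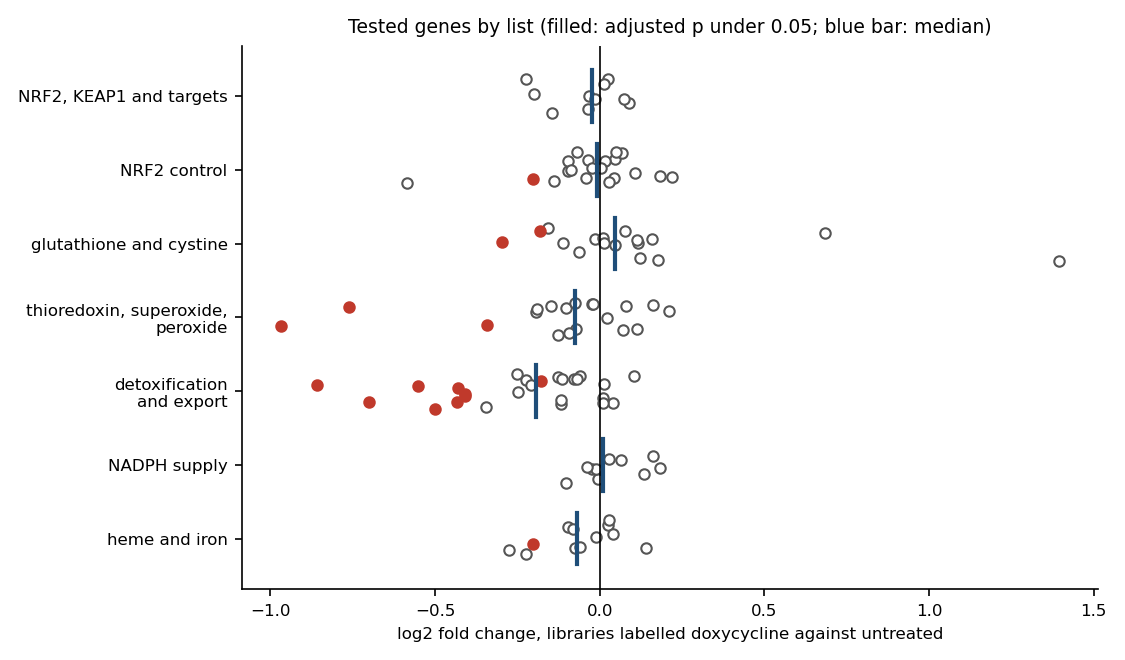
Log2 fold change of every tested gene in the 10-gene set and the 6 further lists, libraries labelled doxycycline against untreated, with a blue bar at each list's median. Filled red points passed the adjusted test: all 16 lie below 0, and 9 of them belong to detoxification and export. The lists were chosen with earlier results of these data known.

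Detoxification and export genes held most of these calls. Of 41 genes, which include glutathione S-transferases, aldehyde and epoxide metabolism and drug efflux pumps, 26 were tested. This list too was chosen with earlier results of these data known. By edgeR 9 were called lower and 0 higher, against 2.16% and 0.925% of all tested genes. Without adjustment 13 were lower and 0 higher at p under 0.05, against 8.95% and 7.25% of all tested genes. Fitted log2 fold changes above 0 were seen for 5 of the 26. The median log2 fold change was -0.19. Ephx1, which encodes microsomal epoxide hydrolase, fell to 0.552 times, from 5.36 ± 0.778 to 2.96 ± 0.132 CPM (SD here and below, n = 3 each, SE 0.16 on the log2 scale, edgeR adjusted p 0.00293). Aldh3a1, an aldehyde dehydrogenase, had 15.8, 17.3 and 16.5 CPM untreated and 9.44, 11.3 and 9.64 CPM in the libraries labelled doxycycline. The groups did not overlap, with a log2 fold change of -0.70, an SE of 0.10 and an edgeR adjusted p of 0.000184. Both calls held in all 17 alternatives. Mgst3, a microsomal glutathione S-transferase, fell from 19.1 ± 0.977 to 13.4 ± 1.96 CPM (log2 fold change -0.50, edgeR adjusted p 0.00592) and lost its call in 2 of the 6 fits that left out a library. Gsta4, which conjugates lipid aldehydes such as 4-hydroxynonenal, fell from 26.9 ± 1.79 to 20.0 ± 3.10 CPM (log2 fold change -0.43, edgeR adjusted p 0.0114) and lost its call in 3 of the 6. The other calls, named after their values were seen, were Gstm1 (-0.55), Mgst2 (-0.43), Mgst1 (-0.41), the efflux pump Abcc3 (-0.41) and Ugdh (-0.18), with 3 to 5 of the 6 fits losing them. Gsta and Gstm genes have near-identical relatives, so the split of reads among them is uncertain. The number of calls in this list was 2 without doxycycline replicate 3, 3 without untreated replicate 1, 4 without untreated replicate 3, 5 without untreated replicate 2, and 9 or 10 in the other alternatives.

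**Figure D5:**
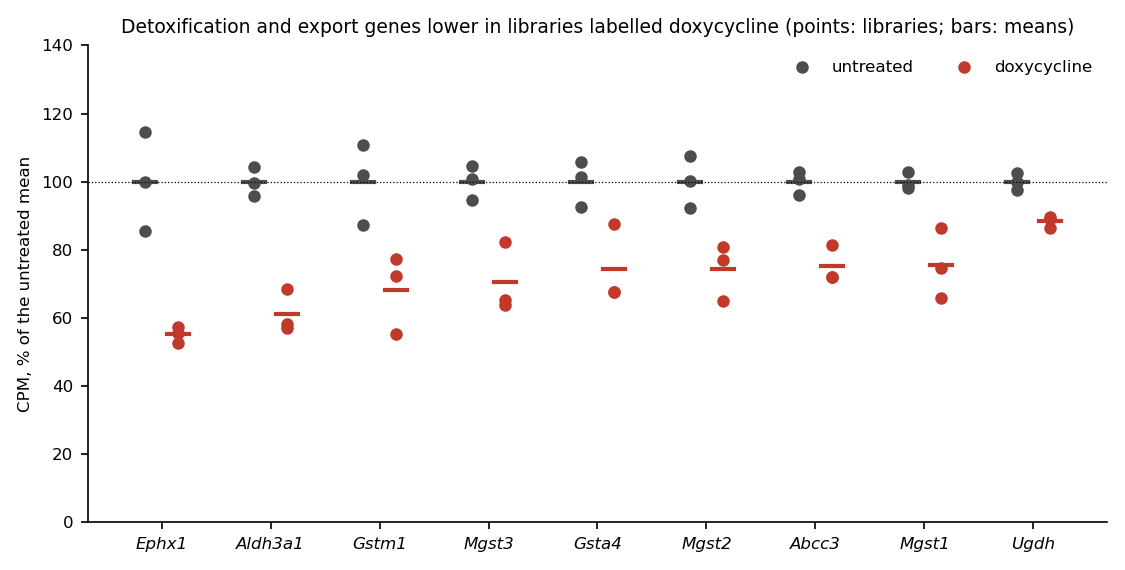
CPM of the 9 detoxification and export genes that passed the test, as a percentage of each gene's untreated mean (axis from 0), with points for libraries and bars for group means. All libraries labelled doxycycline (red) lie below all untreated libraries (grey) in each of the 9 genes, most clearly for Ephx1 and Aldh3a1. The genes were chosen by the test on these same libraries, so this separation follows largely from the choice. Over all tested genes 11.1% had groups apart in this direction.

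Markers of other cell types were set beside these calls. Cd14, listed as a leukocyte marker, fell from 17.2 ± 1.59 to 12.3 ± 0.363 CPM (log2 fold change -0.48, edgeR adjusted p 0.00482), while Adgre1 was at 0 in all libraries, Cd3e reached 2 counts, Itgam 4 and Ptprc 21. The summed level of the 6 leukocyte markers was 16.2 to 19.4 CPM untreated and 12.3 to 13.0 CPM in the libraries labelled doxycycline, nearly all of it Cd14. Pdgfra, listed as a fibroblast marker, fell from 36.7 ± 1.37 to 27.8 ± 0.669 CPM (edgeR adjusted p 0.000952). Of the other fibroblast markers Col3a1 was at 0, Pdgfrb and Dcn were at 5 counts or fewer and Col1a1 at 20 or fewer, and the 5 markers summed to 35.5 to 38.2 CPM untreated and 27.4 to 28.7 CPM in the other group. The 4 endothelial markers had at most 23 counts. Of the 7 epithelial markers 1 passed, the keratin Krt19, which was lower (log2 fold change -0.31, edgeR adjusted p 0.00782). The other 6 had log2 fold changes above 0 without passing, and the groups of Epcam (0.13), Cldn4 (0.25) and Cldn7 (0.33) did not overlap. Over all tested genes 10.1% had groups apart in this direction. The part of these shifts in the detoxification calls was not tested.

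Among 19 genes of the thioredoxin system and of superoxide and peroxide removal, all tested, 3 were called lower and 0 higher. The shares over all tested genes were 2.16% and 0.925%, and the median of the list was -0.08. The smallest p among them was that of Txnip, the thioredoxin-binding protein that restrains thioredoxin and glucose uptake, at 25.6, 25.3 and 28.5 CPM untreated and 14.2, 14.6 and 18.0 CPM in the libraries labelled doxycycline. The groups were well apart (log2 fold change -0.76, SE 0.09, edgeR adjusted p 3.17e-05), and the call held in all 17 alternatives. Txnip acts against thioredoxin, so its direction does not follow the list's name. Sod3, the secreted superoxide dismutase, fell from 2.52 ± 0.535 to 1.29 ± 0.328 CPM (edgeR adjusted p 0.0307), and Msrb3, a methionine sulfoxide reductase, from 15.9 ± 0.817 to 12.5 ± 0.724 CPM (edgeR adjusted p 0.0481). The calls of Sod3 and Msrb3 were lost in 4 and 5 of the 6 fits that left out a library. Prdx2, a cytosolic peroxiredoxin, stood at 308 ± 3.04 and 278 ± 2.81 CPM and did not pass (edgeR adjusted p 0.0652).

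In the glutathione and cystine list 17 of 21 genes were tested, and the median was 0.05. Of these 2 were called lower and 0 higher, against 2.16% and 0.925% of all tested genes. Gpx1, a selenium-dependent glutathione peroxidase, fell from 181 ± 3.56 to 160 ± 3.46 CPM (log2 fold change -0.18, edgeR adjusted p 0.0250). Glrx, the cytosolic glutaredoxin that removes glutathione from proteins, fell from 23.6 ± 0.889 to 19.2 ± 1.33 CPM (log2 fold change -0.30, edgeR adjusted p 0.0482). These calls were lost in 4 and 5 of the 6 leave-out fits, and Glrx also with limma voom. Oplah, which opens 5-oxoproline in glutathione turnover, was under 1 CPM in every library and did not pass (edgeR adjusted p 0.188).

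Among 20 genes that control NRF2, with a median of -0.01, 1 was called lower and 0 higher (2.16% and 0.925% over all tested genes). This gene was Sqstm1, whose product p62 is both an NRF2 target and a protein that draws KEAP1 into autophagy. Sqstm1 had 278, 273 and 292 CPM untreated and 244, 245 and 242 CPM in the libraries labelled doxycycline. The groups were apart (log2 fold change -0.20, SE 0.04, edgeR adjusted p 0.0113), and the call was lost without untreated replicate 1 or 3 and without doxycycline replicate 3 (adjusted p up to 0.150). None of the 3 small MAF partners passed. The groups of Mafg and Mafk did not overlap, with the libraries labelled doxycycline higher, where 10.1% of all tested genes did so. Those of Maff overlapped (edgeR adjusted p 0.805). Mafg stood at 36.0 ± 1.94 and 40.8 ± 0.403 CPM (edgeR adjusted p 0.143) and Mafk at 24.8 ± 1.40 and 28.8 ± 1.81 CPM (edgeR adjusted p 0.131). Bach2, a repressor that binds similar elements, stood at 4.16 ± 0.788 and 2.75 ± 0.179 CPM (edgeR adjusted p 0.0846). Its groups did not overlap either, with the libraries labelled doxycycline lower, where 11.1% of all tested genes did so. Bach2 did not pass the reported test. It was called lower without a filter, without untreated replicate 1 and in each fit that adjusted for GC and length. Over this list the groups stood apart for 3 genes in the higher direction and 4 in the lower.

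The NADPH that GSR, TXNRD1 and NQO1 consume comes largely from the pentose phosphate route and malic enzyme. Of 10 genes listed for NADPH supply, which also include an isocitrate dehydrogenase and an NAD kinase, 0 were called in either direction by edgeR, DESeq2 and limma voom. Before adjustment 3 were higher and 0 lower at p under 0.05 (edgeR), against 7.25% and 8.95% of all tested genes. Pgd, which makes NADPH from 6-phosphogluconate, stood at 173 ± 1.69 and 189 ± 2.51 CPM (edgeR adjusted p 0.110), Me1, the cytosolic malic enzyme, at 63.4 ± 1.98 and 71.0 ± 2.65 CPM (edgeR adjusted p 0.128) and Rpia, the ribose phosphate isomerase, at 31.9 ± 0.962 and 36.3 ± 1.56 CPM (edgeR adjusted p 0.149). Groups did not overlap for these 3 genes, with the libraries labelled doxycycline higher, where 10.1% of all tested genes did so. Tkt, the transketolase, did overlap between the groups (edgeR adjusted p 0.599). With the GC content and length correction, and likewise without doxycycline replicate 2, 2 genes of this list were called higher (Pgd and Me1). Over all tested genes, calls higher numbered 375 and 269 in these fits, against 121 in the reported test.

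Of 12 heme and iron genes, with a median of -0.07, 1 was called lower and 0 higher (2.16% and 0.925% over all tested genes). Fth1, the ferritin heavy chain that stores iron released by heme oxygenase, had 988, 856 and 917 CPM untreated and 853, 757 and 788 CPM in the libraries labelled doxycycline. The lowest untreated library lay only just above the highest of the other group (log2 fold change -0.20, SE 0.05, edgeR adjusted p 0.0366). Its call was lost without untreated replicate 1 or 3 and without doxycycline replicate 3, with an adjusted p of up to 0.259, and Fth1 has many processed copies in the genome that can draw reads. Alas1, the first enzyme of heme synthesis, stood at 23.1 ± 0.445 and 19.7 ± 1.27 CPM (edgeR adjusted p 0.146). The heme exporter Flvcr1, listed under its older symbol Mfsd7b, and Pgrmc1 did not pass (edgeR adjusted p 0.370 and 0.523).

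Slc7a11 had the smallest unadjusted p among the members, and the genes with the most similar profile were looked up over the 6 libraries among 8773 genes with a mean of at least 10 CPM. Likeness was the root mean square difference between centred log2 CPM profiles. The closest were Aldh3a2 at 0.014, Ripk4 at 0.018 and Sox4 at 0.026 log2 units. Aldh3a2 had 46.6, 45.8 and 45.3 CPM untreated and 37.8, 41.4 and 40.8 CPM in the libraries labelled doxycycline, low in the same replicate 1 as Slc7a11. Of these 3 genes Sox4 passed the test (log2 fold change -0.20, edgeR adjusted p 0.0254) and the other two did not. Likeness was taken over both groups, so a similar fold change and a low doxycycline replicate 1 follow from the choice of genes.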

How the data were processed

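Raw read counts per gene were deposited by the authors, who aligned reads from ribosomal RNA-depleted, dUTP-stranded libraries to mm10/GRCm38 with STAR and counted them with featureCounts. Per the submitters' processing notes, bcl2fastq 2.20 and Subread 1.6.2 were used. The strand setting and the handling of multiply mapped reads are not given in the sources used here. All 6 columns were matched to samples by library code, and groups were taken from sample titles.

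Differential expression was tested with the quasi-likelihood test of edgeR 4.0.16 (R 4.3.3) using robust estimation, TMM factors, filterByExpr and group as the sole term. This left 13084 of 24421 genes, and p-values were adjusted over all of them (Benjamini-Hochberg, threshold 0.05). The SE is the absolute log2 fold change over the square root of F, and 95% intervals use the t quantile at the test's degrees of freedom. The study itself used DESeq2, which was run as an alternative (1.42.0), as was voom of limma 3.58.1. Other scalings and filters, a replicate block, a GC content and length correction, removal of Rn45s and removal of each library in turn were also tried. GC content and length came from GENCODE M21, with values for 99.3% of tested genes. Scripts were tested on simulated counts. Replicate pairs gave a chi-square per degree of freedom of 6.14 to 22.1, so no library was a copy of another. The study describes the replicates as biological triplicates.

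Members and gene lists were chosen with earlier results of these data known. The text names all 10 members, the 4 genes of each further list with the smallest unadjusted p, other called members of a list, and the 3 genes most like the leading member. The values of 1 listed marker are not reported here. Coordinates are from RefSeq GRCm38.p6, counted from 1.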

Additional observations from a re-analysis of the deposited data

How the results depend on the processing

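No member was called higher under any alternative tried. The number called lower was 1 without a filter (Slc7a11), 2 with DESeq2 (Slc7a11 and Gsr), 1 after correcting for GC content and length (Gsr), 1 with that correction and the replicate block, 0 to 2 when each library was left out in turn (2 without doxycycline replicate 2), and 0 in the other alternatives. The median log2 fold change of the members ran from -0.0343 to 0.000365 over the leave-out fits. Values near 0 changed sign in leave-out fits for Keap1 (-0.0209 to 0.0882), Hmox1 (-0.0586 to 0.0073), Txnrd1 (-0.00583 to 0.0273) and Srxn1 (-0.0612 to 0.0217).

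Over all genes, 121 were called higher and 283 lower in the reported test. There were 210 higher and 439 lower without a filter, 375 and 482 after that correction, and 352 and 475 with it and the replicate block. With the correction 56.2% of calls were lower, against 70.0% in the reported test. DESeq2 called 185 higher and 358 lower. The leave-out fits ran from 44 to 269 higher, lowest without untreated replicate 3 and highest without doxycycline replicate 2, and from 116 to 487 lower with the same extremes. The cause was not tested.

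Genes called lower in the NRF2 control list numbered 2 without a filter, 2 after the GC and length correction, 2 with the correction and replicate block, and 0 to 1 in the leave-out fits. The glutathione list had 1 with limma voom and 0 to 2 in the leave-out fits. The thioredoxin list had 4 lower with upper quartile scaling, with DESeq2 and with the GC and length correction, with or without the replicate block. With the replicate block alone it had 2 lower. The thioredoxin list ran from 1 to 2 lower and from 0 to 1 higher in the leave-out fits. The detoxification list ran from 2 to 10 lower, and the heme and iron list from 0 to 2 lower and 0 to 1 higher. The NADPH list had 2 higher after the GC and length correction, 2 higher with the correction and replicate block, and 0 to 2 higher in the leave-out fits.

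Same-numbered replicates did not deviate together (correlations of -0.040, -0.004 and 0.018). A weak shared effect could be missed by these values, so pairing of the samples by number is not settled. With the replicate block, 118 genes were called higher and 300 lower, 0 members were called, and Msrb3 lost its call. Depth limits Nqo1 most among the members, and genes under 1 CPM such as Oplah cannot be judged at this depth.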
